A study of Mus musculus with 2 samples.

Results

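Clusters of neighbouring distal open chromatin regions were examined in mouse blood monocytes. The members were selected on the measured peaks themselves: overlapping peaks of the conservative set made from both replicates were merged on chromosomes 1 to 19, regions over 1 kb from every protein-coding transcription start site (TSS) were kept, and kept regions were stitched across short gaps, the widest of 12499 bp. The members are the regions in stitched groups of 4 or more, which gave 3236 members in 634 groups. They made up 18.4% of the 17592 distal regions and 11.6% of all 27898 open regions. The other 14356 distal regions stood alone (7999), in pairs (4224) or in threes (2133).

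The study profiled accessible chromatin by ATAC-seq, in which the Tn5 transposase inserts adapters into DNA that is not covered by nucleosomes. It holds 1 group of 2 replicates, peripheral blood monocytes of adult C57BL/6J mice aged 5 to 6 weeks, each library made from 50000 cells. There is no control group or treatment. Both replicates carry the same donor identifier, but separate biosample and biological replicate numbers. Whether they are separate animals or pools is not stated, so their spread may be only technical. Read depth cannot be read from peak lists, and no comparison of conditions was possible.

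Distal open regions mark places where transcription factors hold nucleosomes away from DNA, among them enhancers, which act on promoters across intervening sequence. Where several such elements lie close together they are often treated as a unit, and dense clusters of active enhancers in a cell type are known as stretch enhancers or super-enhancers. Those terms are usually defined by histone marks or by cofactor binding, which were not measured here, so the groups described are clusters of open regions only. In the myeloid lineage, the ETS factor PU.1, C/EBP factors, RUNX1 and AP-1 are known to open and hold such elements. Blood monocytes of the mouse comprise classical cells, marked by Ly6C and CCR2, and nonclassical cells, which depend on NR4A1 and C/EBPβ.

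The labelled cell type was compared with defining promoters, read only as open or not open. Open promoters were found for 7 of 8 monocyte markers (Csf1r, Cx3cr1, Ly6c2, Itgam, Lyz2, Cd68 and Spi1, but not Ccr2). None was open for 4 T cell, 3 NK cell, 5 neutrophil or 3 platelet markers, whereas 1 of 4 B cell markers (Pax5) and 1 of 2 erythroid markers on chromosomes 1 to 19 (Klf1) had an open promoter. Among the wider gene lists used below, Cd3d of the T cell list had an open promoter, with a fold of 12.1. Distal open regions were assigned to 6 of 8 monocyte markers, and to 34.9% of all protein-coding genes. They were also assigned to 1 of 4 B cell, 2 of 4 T cell and 3 of 3 NK cell markers. For neutrophil, erythroid and platelet markers the counts were 4 of 5, 0 of 2 and 2 of 3. The part of other cells in the members was not tested.

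Sequences are shown first for 1 of the 4 groups tied for the most members with a PU.1-type string, 4 each: a group of 13 regions between Smndc1, which encodes a splicing protein, and Dusp5, which encodes a phosphatase of ERK kinases. It has the most regions of the 4 and was picked for display after the matches had been counted. Over all members, 12.4% held a PU.1-type string. Of the others, the Ccl9 group has 9 regions, the Actb group 8 and the Lcp1 group 7. The strings searched were GAGGAAGT (PU.1-type), TTGCNNAA (C/EBP-type), TGANTCA (AP-1-type), TGTGGTT (RUNX-type), GAAANNGAA (IRF-type) and GGAANNGAA (ETS-IRF composite), on both strands, where N is any base and the last pair of strings can match the same bases. Capitals mark every match to these 6 strings, and each run is 201 bp centred on the summit of a member, the + strand of mm10, read from RefSeq GRCm38.p6. The middle run holds an AP-1-type, a PU.1-type and a C/EBP-type string, and the last holds an IRF-type and a PU.1-type string. The remaining member with a PU.1-type string in this group is not printed.
Smndc1-Dusp5 chr19:53423323-53423523: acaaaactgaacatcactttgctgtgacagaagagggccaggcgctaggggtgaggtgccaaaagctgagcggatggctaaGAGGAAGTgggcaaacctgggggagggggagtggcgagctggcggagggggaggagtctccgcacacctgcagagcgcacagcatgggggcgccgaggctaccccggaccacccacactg
Smndc1-Dusp5 chr19:53424702-53424902: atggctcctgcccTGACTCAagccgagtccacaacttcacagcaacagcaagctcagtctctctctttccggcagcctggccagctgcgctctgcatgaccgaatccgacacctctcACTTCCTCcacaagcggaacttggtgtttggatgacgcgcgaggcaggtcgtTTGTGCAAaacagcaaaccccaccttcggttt
Smndc1-Dusp5 chr19:53460409-53460609: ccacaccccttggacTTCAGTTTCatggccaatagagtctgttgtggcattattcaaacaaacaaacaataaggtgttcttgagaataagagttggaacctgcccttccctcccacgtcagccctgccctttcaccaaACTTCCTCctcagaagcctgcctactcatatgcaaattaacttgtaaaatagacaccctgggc

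The strongest members of 8 large groups are shown next, 201 bp each, with the same capitals, because these are the elements the values below turn on. They are the 7 groups of 12 or more regions and Exoc6, taken by its higher summed fold from 3 groups tied at 11. The Zmiz1, Rubcnl, Cebpb and Exoc6 runs carry matches: an AP-1-type string in Zmiz1, a pair of AP-1-type strings and a RUNX-type string in Rubcnl, a C/EBP-type string in Cebpb and a RUNX-type string in Exoc6. The other runs hold no match to the 6 strings. A match is a description of letters, and no match says only that these letters are not in this window.
Zmiz1 chr14:25527393-25527593: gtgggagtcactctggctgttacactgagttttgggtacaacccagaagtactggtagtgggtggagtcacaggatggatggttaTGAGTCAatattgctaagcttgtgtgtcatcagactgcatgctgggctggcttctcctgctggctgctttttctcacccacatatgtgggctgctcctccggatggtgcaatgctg
Rubcnl chr14:75045247-75045447: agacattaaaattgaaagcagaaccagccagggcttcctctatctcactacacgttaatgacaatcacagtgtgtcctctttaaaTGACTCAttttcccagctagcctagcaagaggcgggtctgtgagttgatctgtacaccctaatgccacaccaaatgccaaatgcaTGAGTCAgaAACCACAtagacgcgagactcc
Cebpb chr2:167760077-167760277: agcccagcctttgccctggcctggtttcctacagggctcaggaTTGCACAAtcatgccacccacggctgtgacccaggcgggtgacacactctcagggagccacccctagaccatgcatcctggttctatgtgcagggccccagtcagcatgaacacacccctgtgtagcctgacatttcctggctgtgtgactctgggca
Exoc6-Hhex chr19:37503123-37503323: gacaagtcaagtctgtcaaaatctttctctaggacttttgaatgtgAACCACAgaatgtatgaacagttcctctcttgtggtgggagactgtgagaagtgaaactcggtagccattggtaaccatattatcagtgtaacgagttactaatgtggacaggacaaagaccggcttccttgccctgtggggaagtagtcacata
Zfp36l2 chr17:84140947-84141147: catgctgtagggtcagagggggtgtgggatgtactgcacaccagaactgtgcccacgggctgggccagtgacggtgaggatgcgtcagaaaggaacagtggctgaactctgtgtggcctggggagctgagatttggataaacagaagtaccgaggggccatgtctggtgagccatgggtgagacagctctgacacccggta
Smndc1-Dusp5 chr19:53479664-53479864: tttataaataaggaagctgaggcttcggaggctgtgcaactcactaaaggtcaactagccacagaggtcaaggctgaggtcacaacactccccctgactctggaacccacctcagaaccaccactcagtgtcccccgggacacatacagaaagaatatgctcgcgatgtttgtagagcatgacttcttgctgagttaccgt
Fosb-Ercc1 chr7:19332855-19333055: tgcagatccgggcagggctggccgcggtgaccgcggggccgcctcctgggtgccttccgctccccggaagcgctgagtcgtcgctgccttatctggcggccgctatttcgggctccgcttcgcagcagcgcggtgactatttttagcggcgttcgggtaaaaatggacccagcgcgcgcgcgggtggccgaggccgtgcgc
Sfi1 chr11:3114501-3114701: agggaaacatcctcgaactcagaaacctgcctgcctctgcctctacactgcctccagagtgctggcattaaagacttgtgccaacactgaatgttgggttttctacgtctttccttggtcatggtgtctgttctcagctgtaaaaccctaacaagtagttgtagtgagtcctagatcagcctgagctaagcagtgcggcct

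The densest group of 6 or more regions lay 27.8 kb or more from the TSS of Sec22b, which encodes a SNARE of the secretory pathway, and packed 6 members into 5.12 kb. Its 3 strongest members are shown as 101 bp each, and these 3 runs hold no match to the 6 strings. In the 201 bp windows used for all counts, 2 of its 6 members held a C/EBP-type string and 1 an ETS-IRF composite. Over all members these strings were in 14.5% and 10.4%.
Sec22b chr3:97932325-97932425: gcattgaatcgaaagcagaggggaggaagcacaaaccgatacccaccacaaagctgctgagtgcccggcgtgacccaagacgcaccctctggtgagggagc
Sec22b chr3:97933975-97934075: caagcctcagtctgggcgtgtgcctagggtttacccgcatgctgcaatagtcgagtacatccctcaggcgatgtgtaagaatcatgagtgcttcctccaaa
Sec22b chr3:97933396-97933496: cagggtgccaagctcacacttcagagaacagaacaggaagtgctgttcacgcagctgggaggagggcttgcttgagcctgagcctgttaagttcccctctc

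Most groups were small. Of the 634 groups, 327 had 4 regions and 132 had 5, together 72.4% of groups, while 14 groups had 10 or more and held 173 members. The span, measured from the start of the first member to the end of the last, had a median of 21.5 kb (interquartile range 15.3 to 29.0 kb, full range 2.80 to 89.2 kb). The spans added up to 14.6 Mb, 0.594% of chromosomes 1 to 19, and members covered 10.1% of that length. The median gap between neighbouring members was 4.83 kb (interquartile range 1.86 to 7.67 kb). At the thresholds of the rule, the widest stitched gap was 12499 bp and the narrowest unstitched gap beside a group was 12530 bp. The member closest to a TSS lay 1002 bp away, and the farthest region left out as promoter-proximal lay 999 bp away.

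**Figure D1:**
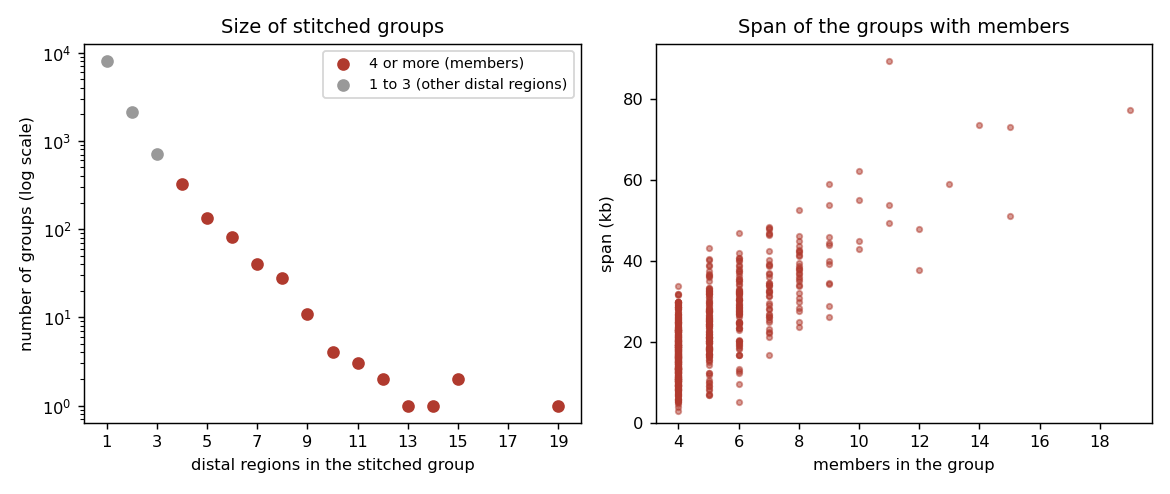
The left plot gives the number of stitched groups (log scale) against the distal regions in each, with groups of 4 or more in red and smaller ones in grey. The right plot gives the span in kb of each of the 634 groups against its members, and the widest span, 89.2 kb, belongs to a group of 11.

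Groups were found on all 19 chromosomes. Members made up the largest share of distal regions on chromosome 12 (26.3% of 750) and the smallest on chromosome 16 (11.4% of 634). The largest number of groups, 56, lay on chromosome 11, which also had the most distal regions per length, 11.7 per Mb.

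Of the members, 57.1% were intergenic, 39.0% intronic and 3.92% exonic, against 49.3% intergenic, 45.3% intronic and 5.36% exonic for the other distal regions. In 174 groups (27.4%) every member lay in the same protein-coding gene, and in 263 groups (41.5%) no member lay in a gene. An open promoter fell inside the span of 107 groups (16.9%). Each group was named by the gene whose TSS was nearest to most of its members within 100 kb. A name therefore records position and says nothing of which gene a region acts on. Such a name was possible for 602 groups, and the named gene had an open promoter in 439 of them (72.9%), against 47.7% of all 20698 protein-coding genes. The first share is over groups, and 26 genes named more than 1 group. Genes nearest to the other distal regions were not compared, so these shares do not speak to clustering.

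The group near Cebpb, which encodes C/EBPβ, comprised 12 regions, all intergenic and all 51.7 to 88.4 kb from the TSS (chr2:167740597-167778323). Its median fold enrichment over background, the authors' value for each peak, was 3.65. The medians were 3.79 in replicate 1 and 3.69 in replicate 2, each over the members found in that replicate's looser list, as are the replicate medians of the groups that follow. Every member was weak by this measure, between 2.18 and 4.94, yet the regions were wide, with a median of 547 bp against 406 bp for all members. The strongest member, whose C/EBP-type string is printed above, had a fold of 5.10 in replicate 1 and 4.85 in replicate 2. The Cebpb promoter was itself open, at 3.46 in replicate 1 and 3.40 in replicate 2, below the strongest distal member in both.

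Groups around genes for RNA decay and the early response were among the largest. The group near Zfp36l2, which encodes an RNA-binding protein that promotes decay of AU-rich mRNAs, held 15 intergenic regions at 41.7 to 92.5 kb from the TSS (chr17:84095154-84146262). Its median fold was 3.54 in replicate 1 and 3.74 in replicate 2. The group near Ier5, an immediate early gene, held 11 regions with medians of 5.59 in replicate 1 and 4.33 in replicate 2. The group around Fosb, an AP-1 subunit, and Ercc1, a subunit of a DNA repair nuclease, held 12 regions, 2 of them exonic, with medians of 5.17 in replicate 1 and 4.0 in replicate 2. In replicates 1 and 2 these medians rest on 9 and 11 members of the Ier5 group and 10 and 11 of the Fosb group. For the Zfp36l2 group they rest on 14 and 15. The medians are not over the same members, so they do not compare the replicates.

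Chemokine genes had neighbouring clusters on chromosome 11. The Ccl6 group held 10 intergenic regions (chr11:83595777-83640756), and the Ccl9-Ccl5 group held 9 regions (chr11:83533293-83577562). These genes encode secreted attractants of leukocytes. The Ccl6 group had median folds of 7.71 in replicate 1 and 6.12 in replicate 2, from the 7 and 8 members found in those replicates' looser lists. The Ccl9 group had medians of 5.19 in replicate 1 and 5.73 in replicate 2. Of the 10 Ccl6 members, 5 held a C/EBP-type string and none a PU.1-type string, whereas 4 of the 9 Ccl9 members held a PU.1-type string and 1 a C/EBP-type string. Over all members the C/EBP-type string was in 14.5% and the PU.1-type string in 12.4%. An ETS-IRF composite was in 3 Ccl6 members and 0 Ccl9 members, against 10.4% of all members. These counts are too small for more than a description.

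The widest group spanned 89.2 kb and 11 members (chr19:37472632-37561881). Its 9 intergenic members lay between Hhex, a homeobox transcription factor gene, and the TSS of Exoc6, an exocyst subunit gene, and its last 2 lay in Exoc6 introns. It had the highest median fold of those 8 large groups, 7.90, with medians of 6.78 in replicate 1 and 7.31 in replicate 2. Its strongest member reached 12.1 in replicate 1 and 8.95 in replicate 2. The Zmiz1 group, around the gene of a transcriptional coactivator, held 15 regions, 14 of them intronic. An AP-1-type string was in 4 of the 15, against 12.9% of all members. The Rubcnl group, around the gene of an autophagy regulator, held 14 regions, 4 with a RUNX-type string, against 10.3% of all members. For Zmiz1 and Rubcnl, the string given is the one with the highest count in the group among the 14 searched. These counts are too small for more than a description. The strongest Rubcnl member, at 29.0 kb from the TSS in an intron, had a fold of 9.94 in replicate 1 and 9.24 in replicate 2.

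Among the other large groups, the 10 members near Rapgef1, an exchange factor for the GTPase Rap1, and the 10 near Pik3ap1, an adaptor of PI3-kinase, each lay wholly in introns of that gene. The group named for Lst1 covered the locus of Tnf, Lta and Ltb, genes of the tumour necrosis factor family, and had 9 members with 5 open promoters in its span. Its strongest member, 4.77 kb from the Lta TSS, had 10.4 in replicate 1 and 8.42 in replicate 2. Groups of 9 also lay near Gnai2 (an inhibitory G protein subunit), P2ry2 (a nucleotide receptor) and between Tmprss13 and Il10ra (a receptor chain for interleukin 10). The group between Eed, a subunit of the Polycomb repressive complex, and Picalm, a clathrin assembly protein, held 11.

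The group with most members stood apart. It held 19 regions near Sfi1, a centrosome gene (chr11:3100368-3177670), and began 0.367 kb after the first assembled base of the chromosome. Its first 3 members had folds of 5.00 to 7.85, and its later 16 had folds of 1.91 to 3.47. The group's median share of annotated repeat in the summit windows was 19.4%, against 6.47% for all members. Of its 19 members, 5 were in the own thresholded set of replicate 1 and 5 in that of replicate 2. A further 16 regions of the looser replicated set lay in its span. The printed window of its strongest member was 58.7% annotated repeat. The part of these properties in its size was not tested. Without this group, 3217 members remained and the median fold stayed at 5.46.

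**Figure D2:**
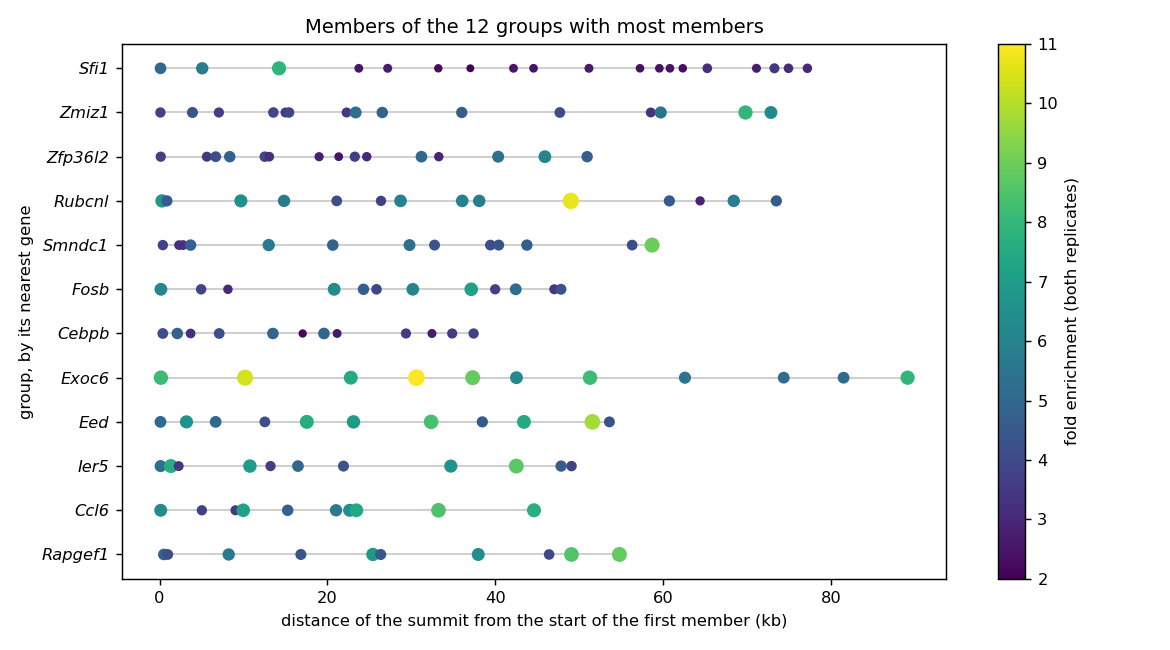
Each row is a group, named by its nearest gene, and each point is a member placed by the distance in kb of its summit from the start of the first member, with point size and colour giving the fold enrichment in the set made from both replicates. Strong and weak members lie side by side in most rows, the Exoc6 group has the highest values (up to 11.4) and the later 16 members of the Sfi1 group lie at 3.47 or below.

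None of the 10 members with the highest fold was in the 20 groups with most members. The highest lay 19 kb from the TSS of Nsd1, a histone methyltransferase gene, with a fold of 16.3 in replicate 1 and 13.7 in replicate 2. It was followed by an intronic member of Akap13, a kinase anchoring protein gene, with 12.4 in replicate 1 and 13.9 in replicate 2. A member 14.4 kb from Dnmt3a, a DNA methyltransferase gene, had 13.4 in replicate 1 and 11.5 in replicate 2. The other members of the 10 highest lay near Mreg, Tent2, Tex14, Actb, Tnfaip3, Arrdc3 and Tpd52. Tnfaip3 encodes A20, an inhibitor of NF-kB signalling, and its member, 37.9 kb from the TSS, had 12.7 in replicate 1 and 10.6 in replicate 2. All 10 were in the own thresholded sets of both replicates.

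Fold enrichment is a value of the same peaks that the rule chose, so it is given as a description. Members had a median fold of 5.46 (interquartile range 4.34 to 6.86), and other distal regions had 6.19 (5.12 to 7.68). The mean over replicates of the median was 5.22 ± 0.114 for members and 5.83 ± 0.148 for other distal regions (SD, n = 2 replicates each). By size of group the median was 6.44 for single regions, 5.99 in pairs, 5.69 in threes, 5.60 in fours, 5.59 in fives, 5.20 in sixes, 5.37 in groups of 7 to 9 and 4.63 in groups of 10 or more. Without the largest group, the 154 members in groups of 10 or more had a median of 4.77. The −log10 p of the peaks ran the other way, with a median of 29.3 for members and 26.7 for other distal regions. Members were also wider, 406 bp against 373 bp. In the looser replicated set, with the same rule, the median fold was 4.30 for members and 4.29 for other distal regions, so that the sign of the difference turned.

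Members of a group resembled each other only in part. The share of the variance of log2 fold that lay between groups was 0.195, and 0.184 and 0.190 in replicates 1 and 2. The SD of log2 fold within groups was 0.43, against 0.48 over all members. The strongest member exceeded the weakest by a median of 1.92 times. Members at the end of a group had a median fold of 5.68, and inner members had 5.28. The strongest member was at an end in 48.4% of groups. Of all members, 39.2% were at an end. Large groups weigh more in that share, so it is not a reference for the share of groups. End members are also a larger part of small groups, where the median fold was higher (5.60 in fours, 4.63 in groups of 10 or more). The part of group size in these values was not tested.

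The replicates ranked the members in a similar way. The members were chosen on peaks made from both replicates, and only those with a value in both are compared. The selection therefore favoured likeness. A fold in each replicate was available for 2898 members, through that replicate's looser list, and the log2 of replicate 2 over replicate 1 was -0.04 at the median with an SD of 0.23. Across these members the Pearson correlation of log2 fold was 0.872 and Spearman's rho 0.856. Across 12578 other distal regions they were 0.816 and 0.785. Regions are not independent replicates, and each pair of values comes from the same 2 libraries. Both replicates had the same strongest member in 446 of 633 groups (70.5%), judged only among members with a fold in both. This held in 233 of 326 groups of 4 (71.5%) and in 59 of 93 groups of 7 or more (63.4%). Larger groups have more members to choose from, so these shares do not rank agreement by size.

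**Figure D3:**
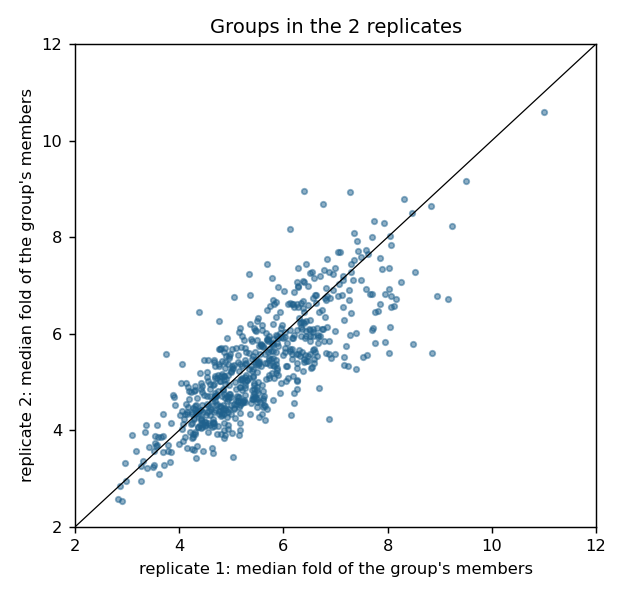
Each point is a group, with the median fold of its members in replicate 1 on the x axis and in replicate 2 on the y axis, both linear and without unit, and the line marks equal values. Points lie along the line between 2.54 and 11.0.

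Presence in a single replicate's stricter list was less complete. In the thresholded set made from replicate 1 alone, 1782 members (55.1%) were found, against a background of 49.7% of all distal regions, and in that of replicate 2 also 1782 (55.1%), against 49.9%. Of the members, 1436 (44.4%) were in both own sets and 1108 (34.2%) in neither. Other distal regions were in both in 36.5% of cases and in neither in 39.3%. The replicates' looser lists held 93.6% of members in replicate 1 and 94.2% in replicate 2. All members of a group were in both own sets in 12 groups, and no member was in the own set of replicate 1 in 23 groups and of replicate 2 in 17.

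The rule itself gave fewer clusters when applied to a single replicate's thresholded set. It found 708 members in 155 groups from replicate 1 and 717 in 157 groups from replicate 2. These overlapped 147 (23.2%) and 150 (23.7%) of the 634 groups. Of the groups found in a single replicate, 148 of 155 in replicate 1 and 150 of 157 in replicate 2 overlapped a group of the set from both. That set was made from the same 2 libraries, so the overlap is not independent.

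Genes were next read by role. A member was assigned to the gene with the nearest TSS within 100 kb, which placed 3042 members at 806 genes, 3.89% of the 20698 protein-coding genes. Of these genes, 450 had 4 or more members. The lists below were chosen with earlier results of these data known, so their counts are descriptions set beside that background and beside the share of genes with any distal region, which was 34.9% over all genes.

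RNA decay and early response regulators had the highest share of genes with members among the lists, 12 of 18 (66.7%). All 18 had a distal region, against 34.9% of all genes. Zfp36l2 had 15 members, Zfp36l1, its close relative, 12, and Ier5 11, while Ier3 and Btg1 had none. Of AP-1, NF-kB and early response factors, 7 of 22 genes (31.8%) had members, among them Fos with 6, Fosb with 6 and Nfkbiz, a nuclear IkB protein, with 5. Any distal region was present at 81.8% of those 22 genes. Jun, the partner of Fos in AP-1, had 1 distal region and no member.

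Among myeloid transcription factors 12 of 34 genes (35.3%) had members, although 94.1% had a distal region. Cebpb had 12 members, Runx3 had 9 and Nr4a1, an orphan nuclear receptor, had 8, while Cebpd and Cebpe had none. The Runx3 members had a median fold of 6.11 in replicate 1 and 6.73 in replicate 2. The Nr4a1 members were weaker, with 3.62 in replicate 1 and 3.16 in replicate 2, and 5 and 3 of the 8 were in the own sets of replicates 1 and 2.

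Genes of nonclassical monocytes had members in 12 of 20 cases (60.0%), and genes of classical monocytes in 2 of 19 (10.5%). Cebpb and Nr4a1 are on the nonclassical list as well as the list of transcription factors, and Stk10, a serine/threonine kinase of leukocytes, had 6 members. The classical genes with members were Il1b, with 4, and Ccr2, with 2, whereas Ly6c2 had none. Any distal region was present at 19 of 20 nonclassical and 10 of 19 classical genes. With the rule applied to single replicates, 7 nonclassical genes had a group in replicate 1 and 5 in replicate 2, against 0 classical genes in either. Over all genes those counts were 196 and 208. The labels do not state the mix of classical and nonclassical cells, and its part in these counts was not tested.

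Signalling and surface genes stood between. The list of signalling kinases and phosphatases, which also holds Smad3, had members at 13 of 26 genes. Smad3, a signal transducer of TGF-beta receptors and not a kinase or phosphatase, had 11. Prkcd, a protein kinase C, had 9 and Fyn, a Src family kinase, had 6, while Syk had none. Chemokine and egress receptors had members at 8 of 18 genes (44.4%), with 6 at Ccr1 and 4 each at Cx3cr1 and S1pr1, the receptor for sphingosine 1-phosphate. The Cx3cr1 members had medians of 5.57 in replicate 1 and 5.35 in replicate 2, and those of Ccr1 had 2.97 in replicate 1 and 2.94 in replicate 2. The Ccr1 medians rest on 4 and 5 members. Of the 6 Ccr1 members, 0 and 1 were in the own sets of replicates 1 and 2. Adhesion genes had members at 9 of 22 (40.9%), including Itgb2, the shared beta chain of leukocyte integrins, with 5, while its partner chains Itgam and Itgax had none. Growth factor and cytokine receptors reached 8 of 22 (36.4%), with 7 members each at Il10ra, Il17ra and Tnfrsf1b. Any distal region was present at 100% of genes on the signalling list and 88.9% of chemokine and egress receptors. The share was 95.5% for adhesion genes and also for growth factor and cytokine receptors.

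Fc, lectin and phagocytic receptors had members at 9 of 25 genes (36.0%), with 7 at Fcgr3, 6 at Cd300a and 4 at Cd36. Innate sensors had them at 6 of 23 (26.1%), with 7 at Nod1, 6 at Aim2 and 4 at Tlr1, and none at Tlr3 or Tlr4. Cytokines and chemokines had them at 6 of 25 (24.0%). Any distal region was present at 92.0%, 82.6% and 76.0% of genes on these lists, in that order. All 5 members of Il1a, which encodes interleukin 1 alpha, were in the own sets of both replicates, with medians of 7.36 in replicate 1 and 8.09 in replicate 2.

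Over 8 lists of other cell types, 3 of 115 genes (2.61%) had members, close to the 3.89% of all genes, and 37.4% had any distal region, close to the 34.9% of all genes. The counts of genes with members were 0 of 16 T cell, 0 of 17 neutrophil, 0 of 12 erythroid, 0 of 13 platelet, 0 of 14 hepatocyte and 0 of 13 neuron genes. They were 2 of 16 B cell genes (Bach2 and Ralgps2, with 4 members each) and 1 of 14 NK cell genes, Klrb1c, a lectin-like receptor gene with 7 members and no open promoter. The Klrb1c members had medians of 4.64 in replicate 1 and 4.31 in replicate 2. Any distal region was assigned to 9 of 16 B cell, 7 of 14 NK cell, 8 of 17 neutrophil and 7 of 16 T cell genes. Ribosomal protein genes, which every cell uses, had members at 3 of 18 (16.7%), with 7 members near Rpl14. Any distal region was assigned to 44.4% of these 18 genes.

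**Figure D4:**
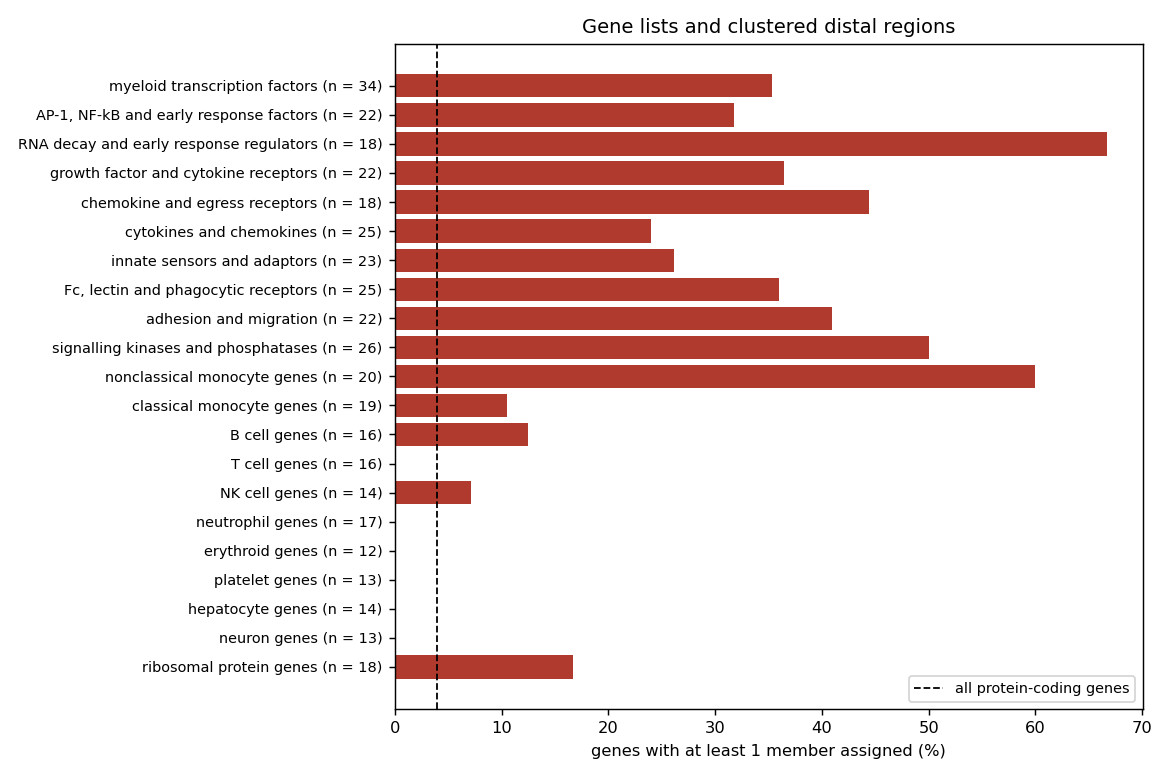
Bars give the percentage of each list's genes, on chromosomes 1 to 19, with at least 1 member assigned, and the dashed line gives the 3.89% of all protein-coding genes. RNA decay and early response regulators (66.7%) and nonclassical monocyte genes (60.0%) have the longest bars, and 6 lists of other cell types have none.

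Motif strings were counted within 100 bp of each summit. The reference within the same loci was the midpoint of each gap between neighbouring members, for 2385 gaps whose midpoint window touched no region of the looser replicated set. The PU.1-type string was in 12.4% of members (95% Wilson interval 11.3 to 13.5), in 11.8% of other distal regions (11.3 to 12.3) and in 1.05% of gap midpoints (0.711 to 1.54). It was in 11.9% of all distal regions and 4.0% of promoter regions. The share in members was 11.8 times that at the midpoints, the highest such ratio among the 14 strings searched. Intervals cover counting error only. The midpoints were also poorer in GC, with a median of 46.8% against 51.2% for members, and richer in repeats, 19.9% against 6.47%, and the part of these differences was not tested.

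The other myeloid strings were also more frequent in members than at midpoints, by smaller ratios. The C/EBP-type string was in 14.5% of members, 13.3% of other distal regions and 7.46% of midpoints, and in 13.5% of all distal regions. The AP-1-type string was in 12.9% of members (11.8 to 14.1), 11.0% of other distal regions (10.5 to 11.5) and 5.62% of midpoints, with 11.3% over all distal regions. The RUNX-type string was in 10.3% of members, 9.52% of other distal regions and 5.95% of midpoints, with 9.66% over all distal regions. The IRF-type string was in 7.94%, 8.18% and 6.62% of members, other distal regions and midpoints, and the ETS-IRF composite in 10.4%, 10.4% and 7.09%. Over all distal regions these were in 8.13% and 10.4%.

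Of the 14 strings, the CTCF-type string, AGNNGGCGC, had the largest gap between the shares of members and other distal regions, a description for which no test was run. CTCF is the zinc finger protein that binds insulators and the anchors of chromatin loops. The string was in 5.07% of members (4.36 to 5.88) and 7.93% of other distal regions (7.50 to 8.39), with 7.41% over all distal regions and 0.922% at midpoints. By size of group it was in 8.60% of single regions, 7.34% in pairs, 6.61% in threes, 6.57% in fours, 3.99% in groups of 5 or 6 and 4.12% in groups of 7 or more. The PU.1-type string was at 11.2%, 12.9%, 11.7%, 11.8%, 12.8% and 12.6% over the same sizes. The KLF-type string, CCACNCCC, ran the other way, at 10.2%, 10.6%, 11.0%, 12.7%, 12.8% and 13%. It was in 12.8% of members (11.7 to 14.0) and 10.4% of other distal regions (9.95 to 10.9), with 10.9% over all distal regions and 6.79% at midpoints.

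The rarer strings were in under 4% of members. The NR4A-type string, AAAGGTCA, was in 3.28% of members, 2.67% of other distal regions and 1.05% of midpoints. The GATA-type string, AGATAAG, of erythroid and megakaryocyte factors, was in 1.73% of members, 1.89% of other distal regions and 2.10% of midpoints. Over all distal regions these strings were in 2.79% and 1.86%. The remaining strings were GGGNNTTTC (NF-kB-type), TCACGTG (an E-box of MiT/TFE factors), TGTTTAC (forkhead-type) and ATGCAAAT (octamer), found in 3.77%, 2.75%, 2.90% and 1.67% of members and in 2.95%, 2.26%, 2.54% and 1.23% of other distal regions. Over all distal regions they were in 3.10%, 2.35%, 2.61% and 1.31%.

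**Figure D5:**
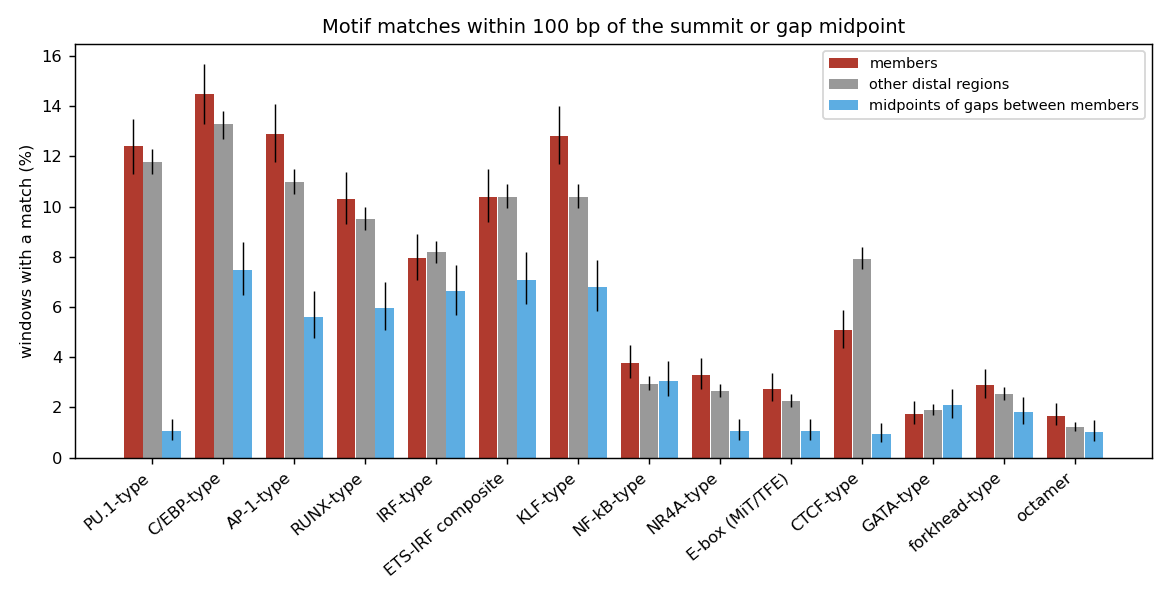
Bars give the percentage of 201 bp windows with a match on either strand, in members (red), other distal regions (grey) and the midpoints of gaps between members (blue), with 95% Wilson intervals. The PU.1-type string falls to 1.05% at midpoints, the IRF-type string stays at 7.94% in members and 6.62% at midpoints, and the CTCF-type string is lower in members (5.07%) than in other distal regions (7.93%).

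At least 1 of the PU.1-, C/EBP-, AP-1- and RUNX-type strings was in 42.1% of members, 38.3% of other distal regions and 18.6% of midpoints. No member and no other distal region held all 4, and 3 were held by 15 members (0.464%) and by 0.474% of other distal regions. Taken by group, 43 groups (6.78%) held all 4 strings across their members, 134 (21.1%) held 3, 243 (38.3%) held 2, 148 (23.3%) held 1 and 66 (10.4%) held none. The PU.1-type string was in at least 1 member of 296 groups (46.7%) and in at least 2 members of 81 (12.8%). Members with a PU.1-type string were in the own thresholded set of replicate 2 in 62.0% of cases and of replicate 1 in 56.8%, against 54.1% and 54.8% of members without it. Such a rise was not particular to this string. For the AP-1-type string the shares were 60.4% and 61.9%, against 54.3% and 54.1% without it. For the NR4A-type string they were 67.0% in both, against 54.7%. The IRF-, CTCF- and GATA-type strings went the other way in both replicates.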

How the data were processed

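ATAC-seq peak lists of 2 replicates and of both together were used, in mm10 coordinates per the labels. The authors deposited for each peak a fold enrichment (a linear ratio over background), a −log10 p and a summit. For the aligner, the peak caller and any Tn5 shift, the answer is not given in the sources used here. Peaks were merged where they overlapped by at least 1 bp, with a region taking its highest fold and the summit of the peak of lowest p. TSSs came from GENCODE M21 (protein-coding transcripts) and sequence from RefSeq GRCm38.p6, with Python 3.11.15, pandas 2.3.3, scipy 1.17.1 and pysam 0.24.0. A member's replicate fold was that of the strongest overlapping region of the replicate's looser (pseudoreplicated) list. The groups named were the 20 with most members, the 5 widest and the 5 densest, the 10 members of highest fold, and up to 3 genes with most members and 2 with none per list; not all are described, and some are not reported here. Members and lists were chosen with earlier results of these data known. The 21 lists held 408 different genes, 15 of them not annotated on chromosomes 1 to 19. With 1 group no difference was tested. Scripts were checked on simulated data. The alternatives varied the gap, group size, TSS distance and annotation, peak set, peak p, overlap, gene distance and window, and left out each replicate.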

Additional observations from a re-analysis of the deposited data

How the results depend on the processing

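Numbers of members, groups, their share of distal regions, the fold difference between members and other distal regions and the share of genes with a member all moved with the rule. With a gap of 5 kb they were 603, 139, 3.43%, -1.65 and 0.730%, and with 25 kb 6692, 1138, 38.0%, -0.45 and 8.70%. With groups of 3 or more they were 5369, 1345, 30.5%, -0.75 and 7.25%. Over 2.5 kb from a TSS the share of distal regions was 16.5%, the fold difference -0.79 and the share of genes 3.08%; with TSSs of every annotated gene the shares were 15.1% and 2.84%, and with the other thresholded set from both replicates 16.9% and 3.39%. The replicated set gave 13871 members, 2314 groups, 34.5%, a reversed fold difference of 0.01 and 12.4% of genes. Peaks at or above the median −log10 p of 25.6 gave 818, 182, 8.57%, -1.11 and 1.15%. Single replicates gave 708 to 717 members, 155 to 157 groups, 7.72% to 7.73% of distal regions, differences of -0.89 to -0.64 and 0.947% to 1.00% of genes. A limit of 50 kb to the TSS gave 3.63% of genes. The share of members in a replicate's own set, judged by its binomial interval because both replicates gave the same value, was 52.4% at 5 kb, 28.8% in the replicated set, 58.8% in the other thresholded set, 85.2% at the stricter p and 93.9% in the looser own lists. That interval counts regions as independent draws, which they are not, so it does not measure the spread between replicates. The PU.1-type share was 11.1% at a gap of 5 kb, and 8.78% and 14.9% with 50 and 250 bp each side; median GC was 51.7%, 52.5% and 49.3% under those settings. Leaving out the largest group, an alternative chosen after seeing the data, changed the share of distal regions to 18.3% and no other value beyond its spread. The cause of these movements was not tested. No paired analysis was possible because there is only 1 group. Depth is unknown, so absence of a region cannot be told apart from shallow reading.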

Other observations

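Not every open region inside a cluster was a member. The looser replicated set held 631 further distal regions within the spans that touched no member, in 342 of the 634 groups. No protein-coding TSS lay within 100 kb of any member in 32 groups, among them 1 of the 5 densest. That dense group packed 6 members into 12.9 kb on chromosome 9. Its median folds were 4.35 in replicate 1 and 4.39 in replicate 2. The other dense groups lay in introns of Ppp2r5c, a regulatory subunit of protein phosphatase 2A, with 6 members in 9.61 kb, in introns of Tbc1d2b, with 6 in 12.2 kb, and near Klrb1c, with 6 in 13.2 kb. The start of an annotated lncRNA lay within 1 kb of 5.28% of members and 4.01% of other distal regions.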
